A study of Mus musculus with 51 samples.

Results

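Imprinted genes that lie outside the Dlk1 locus were followed in clonal mouse stromal lines: Peg10, Sgce, Peg3, Ndn, Slc38a4, Grb10, Plagl1, Mest, Cdkn1c and H19. A gene counted as measured where a probe set of the array named its symbol and no other, and 9 of the 10 met this among 19938 genes measured; H19 was matched by no such probe set and is not analysed here. Each of the 9 had 1 probe set. RNA came from 51 arrays in 17 groups of 3.

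Genomic imprinting is the expression of a gene mainly from the copy inherited from one parent, set by DNA methylation marks laid down in egg or sperm. Peg10, Sgce, Peg3, Ndn, Slc38a4, Plagl1 and Mest are known to be transcribed mainly from the paternal copy, and Cdkn1c, H19 and, in most tissues, Grb10 from the maternal copy. Many of these genes act on fetal and placental growth and are lowered after birth. The arrays sum both copies, so the values say nothing of which parental copy was transcribed.

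Stromal lines are adherent, fibroblast-like cells on which blood stem cells can be kept, and the labels class each line by how well it supports them. UG26.1B6 (supportive) and UG26.3B5 (less supportive), and both supportive lines AM14-1C4 and AM30-3F4, came from the aorta-gonad-mesonephros region (AGM), an embryonic site where blood stem cells arise, of (CBAxC57BL/10)F1 embryos at day 11. AFT024 and 2012, classed as supportive, and AFT011, BFC and BFC012, classed as non-supportive, came from C57BL/6 fetal liver at embryonic day 14.5. The labels do not say how BFC and BFC012 are related, so they may be the same clone, and the pairs OP9 with BFC and AFT024 with BFC012 may not be independent. BMC9 (supportive) and BMC10 (less supportive) came from adult bone marrow of H2ts6 mice, 14F1-1 (supportive) from that of BALB/c mice, and OP9 (supportive) from the fetal skull cap of (C57BL/6xC3H)F2-op/op mice. Of the 17 groups, 13 were confluent cultures under these names, and the other 4 were AFT024 or BFC012 stroma kept for 4 days without or with KLS cells, which are c-Kit+Sca1+Lin- bone marrow cells rich in blood stem cells, and then sorted as CD45-negative. The labels give 33°C for the confluent cultures, except 37°C for all 3 arrays of 14F1-1 and 2 of the 3 of OP9. Each line is 1 clone, so a difference between lines is a difference between clones. The labels do not say whether replicates were separate cultures, and p-values therefore measure the spread between arrays, which may be technical.

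The deposited log2 signals had been normalized in 4 separate sets, and signals were compared only within a set. The UG26 set held the UG26 lines, confluent AFT024 and BFC012, BMC9 and BMC10. OP9 and BFC formed the OP9 set, the 4 sorted groups the sorted set, and 14F1-1, 2012, AFT011 and the AM lines the 2012 set. As a yardstick for low signal, the first quartile over all genes was 5.72 in the UG26 set, 4.07 in the OP9 set, 4.63 in the sorted set and 5.98 in the 2012 set, and the medians were 7.27, 5.24, 5.85 and 7.38. Of 12 stromal markers, between 8 and 12 lay above the set median in every group. None of 11 hematopoietic markers did so in any group but AM14-1C4, where 1 did; Ptprc, which encodes CD45, lay below the first quartile in each. A difference is the mean log2 signal of the first-named group minus that of the second, ± its standard error (SE) from the limma fit, and it passed where its p-value, adjusted over all genes, was under 0.05.

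RefSeq promoter windows (GRCm38.p6, from 250 bases before to 50 bases after a start) were held for 6 of the 10 genes: Peg3, Ndn, Slc38a4, Grb10, Plagl1 and Mest. They are shown for the genes whose signal went from low to high between lines, with CpG dinucleotides, the sites of DNA methylation, in capitals. Methylation was not measured here, and a window need not be the place of the gene's imprint.
Ndn, chr7:62348027-62348326, plus strand: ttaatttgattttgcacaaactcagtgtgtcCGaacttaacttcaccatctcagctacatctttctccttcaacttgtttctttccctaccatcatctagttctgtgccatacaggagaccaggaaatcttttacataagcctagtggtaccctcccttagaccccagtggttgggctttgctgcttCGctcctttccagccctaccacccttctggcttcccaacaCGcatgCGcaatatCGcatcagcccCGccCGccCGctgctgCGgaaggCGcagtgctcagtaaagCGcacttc
Peg3, chr7:6730370-6730669, minus strand: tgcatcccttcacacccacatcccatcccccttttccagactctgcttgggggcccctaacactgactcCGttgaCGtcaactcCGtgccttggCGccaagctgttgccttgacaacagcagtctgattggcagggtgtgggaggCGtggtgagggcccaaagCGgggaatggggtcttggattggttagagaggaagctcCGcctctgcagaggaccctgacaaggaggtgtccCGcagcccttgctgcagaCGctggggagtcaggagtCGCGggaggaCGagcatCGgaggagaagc
Grb10, upstream start, chr11:12037371-12037670, minus strand: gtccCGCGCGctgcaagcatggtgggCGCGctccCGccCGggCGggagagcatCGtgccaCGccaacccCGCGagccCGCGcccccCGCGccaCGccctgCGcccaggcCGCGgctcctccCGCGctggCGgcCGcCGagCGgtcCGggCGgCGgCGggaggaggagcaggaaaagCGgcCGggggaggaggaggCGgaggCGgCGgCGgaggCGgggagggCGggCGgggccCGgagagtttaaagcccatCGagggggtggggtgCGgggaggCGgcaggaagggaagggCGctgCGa
Grb10, inner start, chr11:12027922-12028221, minus strand: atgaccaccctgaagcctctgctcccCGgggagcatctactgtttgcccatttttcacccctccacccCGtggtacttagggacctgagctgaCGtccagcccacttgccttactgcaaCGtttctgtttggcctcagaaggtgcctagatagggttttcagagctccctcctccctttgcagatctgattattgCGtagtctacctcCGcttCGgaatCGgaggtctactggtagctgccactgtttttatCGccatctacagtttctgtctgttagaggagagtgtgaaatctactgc
Slc38a4, outermost start, chr15:97055907-97056206, minus strand: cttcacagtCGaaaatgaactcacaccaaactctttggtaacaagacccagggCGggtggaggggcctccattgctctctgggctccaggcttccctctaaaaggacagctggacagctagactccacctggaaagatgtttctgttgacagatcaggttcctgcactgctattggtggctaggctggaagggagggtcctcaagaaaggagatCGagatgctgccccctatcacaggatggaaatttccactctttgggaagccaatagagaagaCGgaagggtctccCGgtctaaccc
Mest, inner start, chr6:30737800-30738099, plus strand: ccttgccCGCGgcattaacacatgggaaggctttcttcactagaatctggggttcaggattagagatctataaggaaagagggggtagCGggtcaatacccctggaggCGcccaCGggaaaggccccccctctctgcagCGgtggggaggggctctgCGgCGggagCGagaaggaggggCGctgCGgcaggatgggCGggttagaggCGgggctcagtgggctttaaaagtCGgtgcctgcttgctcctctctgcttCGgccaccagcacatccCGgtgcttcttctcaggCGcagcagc
The windows differed widely in CpG content. The upstream Grb10 window held 45 CpG, and 1.93% of the 32851 promoters in the table held as many. The inner Grb10 window, 9449 bases further into the gene, held 9, and each of the 3 Slc38a4 windows held 5, below the median of 7 over all promoters. Peg3 had 13, Ndn 11, Plagl1 26, the inner Mest window 17 and the outer Mest window, 4544 bases before it, 8. The letters TGCCGC, which are the core of the motif of the imprint-binding zinc finger protein ZFP57, were searched on both strands. There were 2 matches in the inner Mest window, 1 each in the Plagl1 and upstream Grb10 windows, and in none of the Peg3, Ndn or Slc38a4 windows shown, against 11.6% of all promoters with at least 1 match. The probe sets do not separate these starts.

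**Figure D1:**
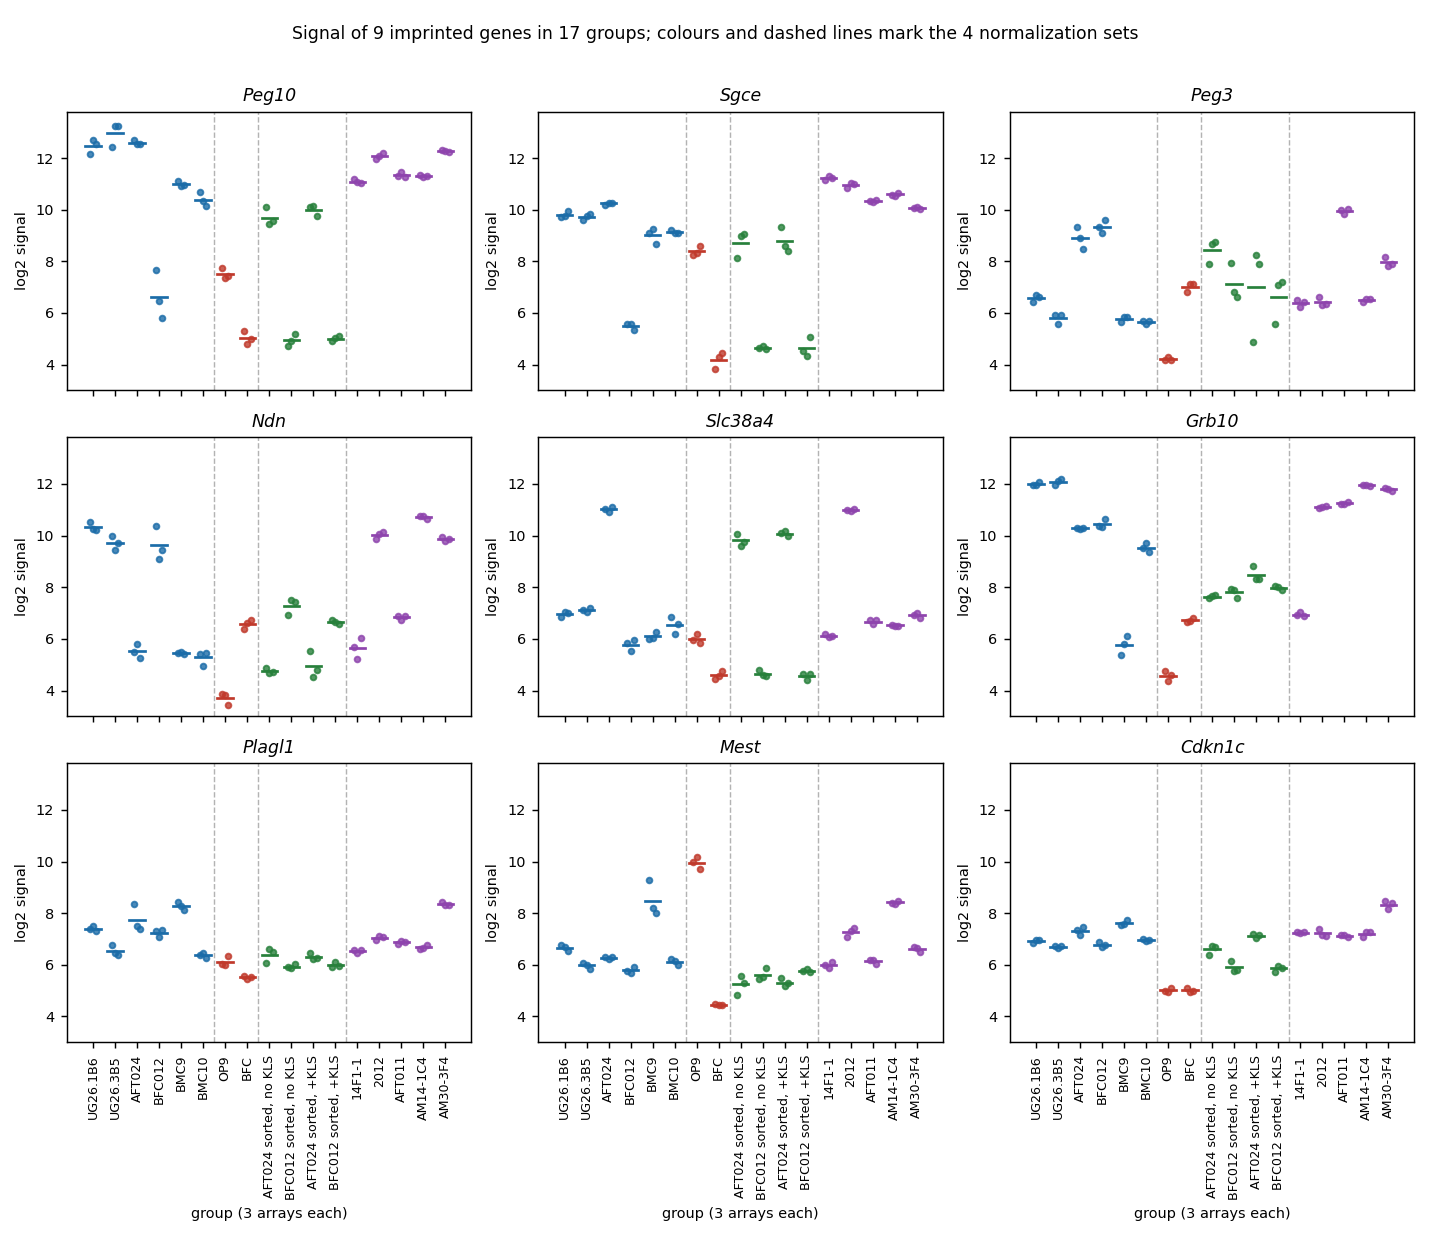
Log2 signal (vertical axis) of the 9 measured genes in the 17 groups (horizontal axis). Points are single arrays and lines are group means; colours and dashed lines mark the 4 normalization sets, between which heights are not comparable. Peg10 and Sgce are low in BFC012 and BFC, Slc38a4 is near 11 in AFT024 and 2012, and Grb10 is low in BMC9, OP9 and 14F1-1.

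Peg10 and Sgce were both high in most lines and both low in BFC012 and in BFC, which may be 1 clone. Peg10 (chr6:4747306-4760517) is a retrotransposon-derived gene needed for the placenta, and Sgce (chr6:4674350-4747204) encodes epsilon-sarcoglycan, a membrane protein of the dystrophin-associated complex; they lie 101 bases apart and are transcribed away from a shared imprinted promoter region.
Peg10 signals were 12.70, 12.56 and 12.53 in the 3 AFT024 arrays and 7.66, 6.46 and 5.79 in those of BFC012. They were 12.17, 12.70 and 12.55 in UG26.1B6, 12.42, 13.26 and 13.23 in UG26.3B5, 11.10, 10.91 and 10.95 in BMC9, and 10.70, 10.33 and 10.13 in BMC10. BFC012 stood below every other line of its set, with a spread between its arrays (SD 0.948) that was the widest in that set; the ranges of AFT024 and both UG26 lines overlapped. The difference between AFT024 and BFC012 was 5.96 ± 0.248 (SE, 62.3-fold; adjusted p = 1.03e-19). In such bulk RNA, fewer cells with a transcript and less of it per cell cannot be told apart.
Sgce signals in AFT024 were 10.18, 10.28 and 10.27, against 5.57, 5.58 and 5.35 in BFC012, a difference of 4.74 ± 0.122 (SE, 26.8-fold; adjusted p = 1.32e-25). The other 4 lines of the set ranged from 8.67 to 9.96, and no array of them came near BFC012. In BFC012 the Sgce signal lay below the first quartile of its set.

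In the OP9 set, the Peg10 signals were 7.74, 7.35 and 7.42 in OP9 and 5.31, 4.78 and 4.98 in BFC, a difference of 2.48 ± 0.248 (SE). Sgce signals were 8.23, 8.34 and 8.61 in OP9 and 3.83, 4.29 and 4.46 in BFC, a difference of 4.20 ± 0.122 (SE, 18.4-fold). The groups did not overlap for either gene. The non-supportive line AFT011 was different: Peg10 gave 11.31, 11.44 and 11.25 there and 11.98, 12.08 and 12.20 in 2012. That difference was 0.75 ± 0.248 (SE; adjusted p = 0.0216), and it no longer passed without the third 2012 array or the first or the third AFT011 array (adjusted p from 0.05795 to 0.0744). It passed in every other alternative, with a limma adjusted p as low as 1.4e-07, and the arrays of 2012 and AFT011 did not overlap. Sgce differed by 0.62 ± 0.122 between 2012 and AFT011.
Within the 2012 set the order of the Peg10 means was AM30-3F4, 2012, AFT011, AM14-1C4 and 14F1-1, from 12.27 to 11.09, and only AFT011 and AM14-1C4 had overlapping ranges among neighbours. The order for Sgce was 14F1-1, 2012, AM14-1C4, AFT011 and AM30-3F4, from 11.22 to 10.06, with no overlap between neighbours. AM30-3F4 was thus highest for Peg10 and lowest for Sgce in that set.

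The measured genes around the pair were set beside it. Col1a2, a collagen I chain gene that is not known to be imprinted and lies on the Sgce side, was also higher in AFT024 than in BFC012 (2.91), in OP9 than in BFC (3.26) and in 2012 than in AFT011 (4.41). Casd1, between Col1a2 and Sgce, had a mean signal of 7.92 in both AFT024 and BFC012, but it was higher in OP9 than in BFC by 1.55 and in 2012 than in AFT011 by 0.47, and both passed. On the Peg10 side, Ppp1r9a and Pon1 differed by -0.09 and -0.03 between AFT024 and BFC012. Their mean signals lay below the first quartile of the set in AFT024, BFC012, OP9 and BFC alike, so these values say nothing of whether the genes share the difference. Pon3, the next gene out, was higher in AFT024 than in BFC012 by 0.36, in OP9 than in BFC by 1.89 and in 2012 than in AFT011 by 1.79, and each passed. Ppp1r9a and Pon3 are also among the other imprinted genes counted below, on the maternally expressed side. In the 2012 pair Col1a2 and Pon3 had larger differences than Sgce or Peg10.

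**Figure D2:**
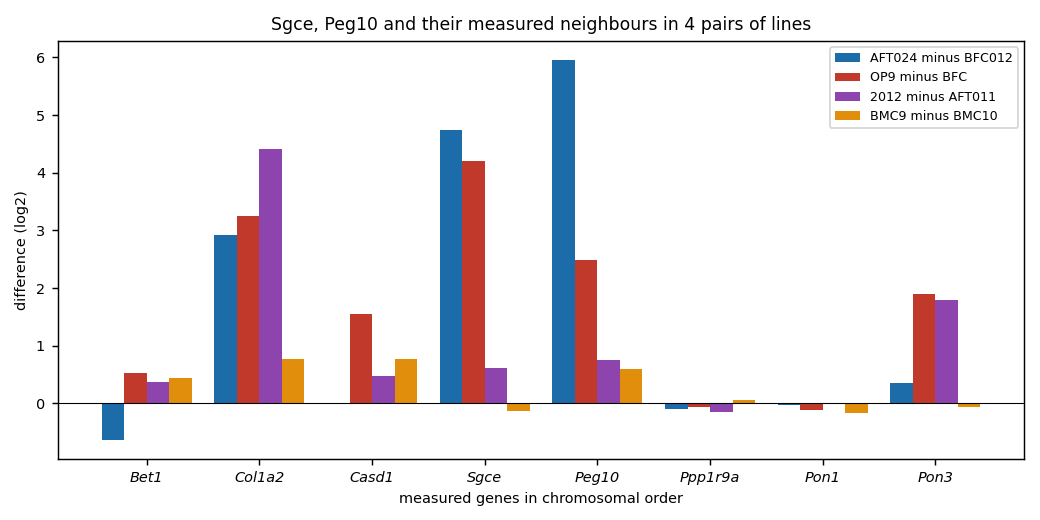
Differences in log2 signal (vertical axis; bars start at 0) for Sgce, Peg10 and their nearest measured genes in chromosomal order (horizontal axis, not to distance) in 4 pairs of lines. Sgce and Peg10 have tall bars in AFT024 minus BFC012 (4.74 and 5.96) and OP9 minus BFC (4.20 and 2.48), short ones in the other pairs; Ppp1r9a and Pon1, which are near 0 throughout, had low signals.

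Slc38a4 was high in the fetal liver lines AFT024 and 2012 alone among the confluent lines. The gene (chr15:96994816-97055956) encodes an amino acid transporter of liver and placenta. Its signals were 11.04, 10.93 and 11.10 in AFT024 and 5.83, 5.54 and 5.95 in BFC012, a difference of 5.25 ± 0.115 (SE, 38.1-fold; adjusted p = 1.63e-27). The other 4 lines of the UG26 set ranged from 6.00 to 7.18. In the 2012 set, the line 2012 gave 11.00, 10.94 and 11.04, AFT011 gave 6.72, 6.56 and 6.73, and the AM lines and 14F1-1 ranged from 6.08 to 7.01. The difference between 2012 and AFT011 was 4.33 ± 0.115 (SE, 20.1-fold). Both fetal liver lines classed as supportive thus stood apart from all other lines of their sets, among them BFC012 and AFT011. Of 6 hepatoblast markers, 1 passed in each of these pairs, Dlk1, higher in AFT024 and in 2012. With 1 marker past the threshold, a sum over the 6 follows mainly Dlk1 in these pairs and is no measure of hepatoblast content. The summed linear signal of the 6 was 7225 to 8671 in AFT024 and 523 to 541 in BFC012, and 4055 to 4553 in 2012 and 620 to 725 in AFT011. It was also 7315 to 9156 in UG26.1B6 and 5355 to 7357 in UG26.3B5, where the Slc38a4 means were 6.96 and 7.11. In AM14-1C4 it was 13360 to 13864, with a Slc38a4 mean of 6.52. The defining markers Alb and Ttr lay below the first quartile in AFT024, BFC012, 2012 and AFT011 (Alb at 4.74 in AFT024 and 5.41 in 2012). The markers' part in the Slc38a4 difference was not tested.
In the OP9 set the signals were 5.98, 6.18 and 5.84 in OP9 and 4.45, 4.57 and 4.75 in BFC, a difference of 1.41 ± 0.115 (SE). The OP9 mean (6.00) lay between the median (5.24) and the third quartile (6.65) of that set, and the BFC mean (4.59) lay below the median. Between BMC9 and BMC10 the difference was -0.44 ± 0.115 with overlapping ranges, and both means (6.10 and 6.54) lay below the set median of 7.27. That call was lost with the replicate number as a block (adjusted p = 0.0967), in fits to fewer arrays (0.0595 and 0.188) and without the first BMC10 array (0.103). The neighbouring transporter genes had other differences. Between AFT024 and BFC012 Slc38a2 differed by 0.23, which passed, and Slc38a1 by 0.22, which did not; between 2012 and AFT011 Slc38a1 differed by -2.37, which passed, and Slc38a2 by -0.04.

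Ndn divided the lines in another way. Ndn (chr7:62348277-62349928) encodes necdin, a growth suppressor of the Prader-Willi region. In the UG26 set its signals were 10.54, 10.26 and 10.23 in UG26.1B6, 9.99, 9.44 and 9.69 in UG26.3B5, and 10.38, 9.11 and 9.45 in BFC012. They were 5.47, 5.80 and 5.27 in AFT024, 5.43, 5.49 and 5.40 in BMC9 and 5.43, 4.96 and 5.46 in BMC10. The latter lines overlapped, with group means below the first quartile of the set. AFT024 was lower than BFC012 by 17.5-fold (difference -4.13 ± 0.204, SE; adjusted p = 9.35e-18).
In the 2012 set the fetal liver lines ran the other way: 9.87, 10.05 and 10.14 in 2012 and 6.89, 6.75 and 6.87 in AFT011, a difference of 3.18 ± 0.204 (SE, 9.09-fold; adjusted p = 1.68e-14). AM14-1C4 gave 10.78, 10.77 and 10.66, AM30-3F4 9.94, 9.80 and 9.85, and 14F1-1 5.69, 5.23 and 6.04. All 4 AGM lines were therefore on the high side and all 3 adult bone marrow lines on the low side, while fetal liver lines fell on both. The AGM and adult marrow lines also differed in mouse strain and age, which cannot be told apart from tissue. OP9 (3.85, 3.84 and 3.45) lay below BFC (6.39, 6.62 and 6.72) by 7.27-fold.
The neighbours Magel2, Mkrn3 and Peg12, paternally expressed genes of the same imprinted domain, had small differences in both fetal liver pairs. Between AFT024 and BFC012 their differences were -0.12, -0.28 and -0.52, and only Peg12 passed. Between 2012 and AFT011 they were 0.26, 0.12 and 0.37, again with only Peg12 past the threshold. Between OP9 and BFC, where Ndn differed by -2.86, Mkrn3 (-0.59) and Peg12 (-0.37) passed in the same direction and Magel2 (-0.05) did not pass. Between the UG26 lines Magel2 passed at 0.81, more than Ndn at 0.64. Mkrn3 lay below the first quartile in AFT024, 2012 and AFT011, where its lack of a difference carries little information.

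Peg3 (chr7:6703892-6730462), which encodes a zinc finger protein of growth and maternal behaviour, was high in AFT024, BFC012 and AFT011 and, against its own set, in BFC, with AM30-3F4 intermediate. The means of AFT024 (8.91) and BFC012 (9.33) lay between the median and the third quartile (9.44) of their set. That of BFC (7.02) lay above the third quartile of its set (6.65). The AM30-3F4 mean (7.98) likewise lay between the median and the third quartile (9.22) of its set. AM30-3F4 was called intermediate because it lay between AFT011 and the other lines of that set. Its signals were 9.31, 8.92 and 8.49 in AFT024 and 9.31, 9.10 and 9.59 in BFC012. Both UG26 lines and both BMC lines ranged from 5.57 to 6.71. AFT024 and BFC012 overlapped; their difference, -0.43 ± 0.141 (SE; adjusted p = 0.0193), did not pass without the third AFT024 array (adjusted p = 0.271), without the third BFC012 array (0.165), or in fits to the UG26 set (0.0780) or to the pair (0.209). Between UG26.1B6 (6.44, 6.71 and 6.62) and UG26.3B5 (5.90, 5.58 and 5.91) the difference was 0.79 ± 0.141 (SE), with both means below the set median of 7.27.
AFT011 gave 9.98, 9.82 and 10.04, and 2012 gave 6.62, 6.30 and 6.35. The difference of 2012 from AFT011 was -3.52 ± 0.141 (SE; 11.5-fold lower; adjusted p = 4.04e-20). BFC (6.82, 7.11 and 7.12) lay above OP9 (4.18, 4.29 and 4.17) by 7.002-fold. Signals in AM30-3F4 were 8.18, 7.84 and 7.91, above those of AM14-1C4 (6.41, 6.55 and 6.55), whereas AM14-1C4, 2012 and 14F1-1 overlapped.
Zim1, the maternally expressed zinc finger gene next to Peg3, was higher in AFT024 than in BFC012 (1.24), where Peg3 was lower by 0.43 on the log2 scale. Usp29, on the other side of Peg3, differed by -0.12 there and by 0.06 between 2012 and AFT011, but it lay below the first quartile in all 4 lines, so that no difference could be read from it. Zim1 too was below it in BFC012, 2012 and AFT011.

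Grb10 was high in every confluent line of the AGM and low in BMC9, OP9 and 14F1-1. Grb10 (chr11:11930499-12037428) encodes an adaptor protein that dampens insulin and growth factor receptor signalling. Signals were 5.37, 5.79 and 6.10 in BMC9 and 9.51, 9.70 and 9.36 in BMC10, so that BMC9 was 13.6-fold lower (difference -3.77 ± 0.112, SE; adjusted p = 2.33e-23). The UG26 lines ranged from 11.95 to 12.19, and AFT024 (10.29, 10.27 and 10.31) and BFC012 (10.36, 10.34 and 10.64) lay between them and BMC10.
In the 2012 set, 14F1-1 gave 6.91, 7.03 and 6.87 and 2012 gave 11.08, 11.12 and 11.15, a difference of -4.18 ± 0.112 (SE; 18.1-fold lower in 14F1-1). AFT011 and both AM lines ranged from 11.23 to 11.96. OP9 gave 4.75, 4.38 and 4.62 and BFC 6.66, 6.68 and 6.81, a difference of -2.14 ± 0.112 (SE). The bone marrow line BMC10 was on the high side, so the low signal was not shared by all lines from adult marrow. Ddc, the nearest measured gene on one side of Grb10 and itself imprinted in some tissues, differed by 0.08 between BMC9 and BMC10, where it lay below the first quartile in both lines and can show no difference. Cobl, on the other side, with means of 6.87 and 6.92, differed by -0.04 there. Between OP9 and BFC, Cobl was lower in OP9 by 0.34 on the log2 scale, and Ddc, again below the first quartile, did not pass.

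Mest was the only member that passed in the same direction in all 5 pairs of a supportive with a less or non-supportive line. Mest (chr6:30733506-30748466) encodes a hydrolase-fold membrane protein of mesodermal tissue. OP9 gave 9.99, 10.19 and 9.70 and BFC 4.48, 4.45 and 4.43, a difference of 5.50 ± 0.169 (SE, 45.4-fold; adjusted p = 1.91e-23). BMC9 gave 9.27, 8.20 and 7.997 and BMC10 6.22, 6.14 and 6.00, a difference of 2.37 ± 0.169 (SE). In these 2 pairs the supportive line stood far above the other, and the first BMC9 array was the highest of its group. The differences were smaller for 2012 over AFT011 (1.13 ± 0.169), UG26.1B6 over UG26.3B5 (0.68 ± 0.169) and AFT024 over BFC012 (0.49 ± 0.169), although groups did not overlap in any of the 5 pairs. In those 3 pairs both lines lay below the median of their set, with means of 7.26 and 6.13 in 2012 and AFT011, 6.66 and 5.97 in UG26.1B6 and UG26.3B5, and 6.28 and 5.79 in AFT024 and BFC012. In sorted stroma the direction between AFT024 and BFC012 was the opposite: -0.38 ± 0.173 without KLS cells (adjusted p = 0.242) and -0.46 ± 0.173 with them (adjusted p = 0.119). Neither passed, but the latter did in a fit to the pair (0.0231) and with the replicate number as a block (0.0492). All sorted means of Mest (5.24 to 5.77) lay below the set median of 5.85, and the groups without KLS cells overlapped. The higher signal of confluent AFT024 was thus not seen in sorted stroma, but these dim signals do not settle a direction there.
In a count made after these values were seen, 10 of the 19938 genes (0.0502%) passed with a higher signal in the supportive line of all 5 pairs. Mest's call ended in a fit to the UG26 set alone for UG26.1B6 over UG26.3B5 (adjusted p = 0.0941) and for AFT024 over BFC012 (0.124), and for the latter also without the first or the third AFT024 array or the first or the second BFC012 array (0.0650 to 0.0915). AM14-1C4 (8.41, 8.36 and 8.47) was also above AM30-3F4 (6.70, 6.64 and 6.50), by 1.80 ± 0.169, but both are classed as supportive.
The microRNA gene Mir335 lies inside Mest, and its probe set gave a difference of 1.54 between OP9 and BFC but 0.16 between BMC9 and BMC10, which did not pass. The probe set reads a precursor or host transcript and does not measure the mature strands. Those are shown with the seed (bases 2 to 8), by which a microRNA pairs with its targets, in capitals; the seeds of the arms differ.
mmu-miR-335-5p: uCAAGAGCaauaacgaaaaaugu
mmu-miR-335-3p: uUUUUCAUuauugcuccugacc

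Plagl1 and Cdkn1c varied over a smaller range. Plagl1 (chr10:13090832-13131694) encodes a zinc finger factor known to regulate other imprinted genes, and Cdkn1c (chr7:143458339-143461059) the cell cycle inhibitor p57. Plagl1 gave 8.41, 8.26 and 8.11 in BMC9 and 6.37, 6.47 and 6.26 in BMC10, a difference of 1.89 ± 0.144 (SE, 3.72-fold). It was also higher in UG26.1B6 than in UG26.3B5 (0.86), in OP9 than in BFC (0.61) and in AFT024 than in BFC012 (0.52). In the last of these the first AFT024 array was at 8.36 and the others at 7.49 and 7.38; without the first the call was lost (adjusted p = 0.171), as it was in fits to the UG26 set (0.0557) or to the pair (0.177). The difference between 2012 and AFT011 did not pass. Over all genes, 0.717% passed with a higher signal in the supportive line of at least 4 of the 5 pairs.
Cdkn1c was higher in BMC9 (7.55, 7.59 and 7.75) than in BMC10 (6.998, 6.92 and 6.98) by 0.67 ± 0.083 and in AFT024 (7.36, 7.16 and 7.45) than in BFC012 (6.87, 6.70 and 6.76) by 0.55 ± 0.083 (SE). OP9 and BFC overlapped for Cdkn1c at 4.96 to 5.12, below the median of that set in every array. AM30-3F4 had the highest mean of its set for both genes: Plagl1 at 8.43, 8.32 and 8.30 against 6.61, 6.65 and 6.77 in AM14-1C4, and Cdkn1c at 8.46, 8.15 and 8.39 against 7.07, 7.26 and 7.29.

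**Figure D3:**
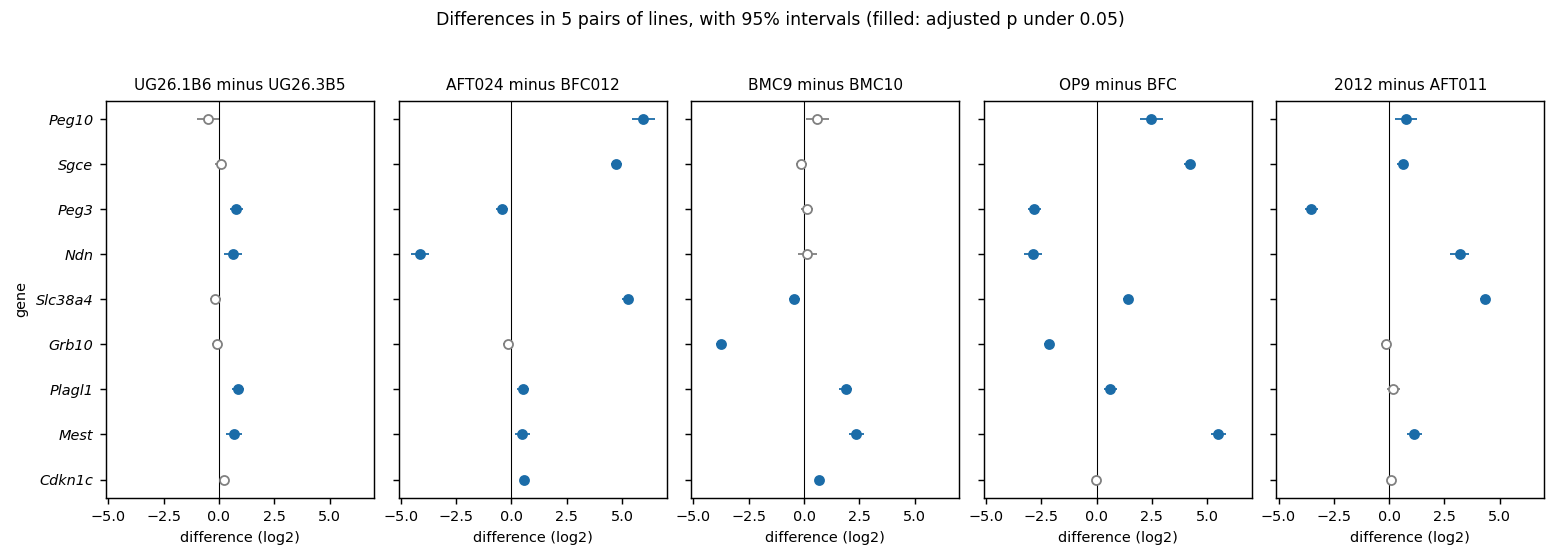
Differences in log2 signal (horizontal axis; first-named line minus second) for the 9 genes (vertical axis) in the 5 pairs of a supportive with a less or non-supportive line. Points are estimates, bars are 95% intervals from the limma fit and filled points passed; Mest lies to the right in all 5 panels, and Ndn at -4.13 in the second panel and at 3.18 in the last.

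By the counts, 8 of the 9 genes passed between AFT024 and BFC012 (6 higher, 2 lower), where 28.5% of all genes passed. The same number passed between OP9 and BFC (5 higher, 3 lower; 34.4% of all genes), and 6 between 2012 and AFT011 (5 higher, 1 lower; 27.6%). In the pairs with a less supportive partner, 4 passed between the UG26 lines, all higher in UG26.1B6 (8.56% of all genes), and 5 between BMC9 and BMC10 (3 higher, 2 lower; 15.5%). The median size of the difference was 0.55 among the members and 0.13 among all genes for AFT024 and BFC012, 2.48 and 0.16 for OP9 and BFC, and 0.75 and 0.16 for 2012 and AFT011. For the UG26 lines those medians were 0.50 and 0.10, and for the BMC lines 0.60 and 0.11. The values over all genes include dim genes, whereas all 9 members (8 in the OP9 set) had a group mean above the set median. Among genes with such a mean, 5229 of 10956 passed between AFT024 and BFC012 and 5987 of 10643 between OP9 and BFC. The counts were 4861 of 11112 between 2012 and AFT011, 1640 of 10956 between the UG26 lines and 2968 of 10956 between the BMC lines.
Replicate numbers were taken to pair the arrays of the UG26 lines and of the BMC lines. For the BMC lines this is uncertain, because differently numbered arrays also deviated together (r up to 0.194, against a lowest same-numbered r of 0.116). With the number as a block Peg10 also passed. UG26.1B6 was lower than UG26.3B5 by 0.50 on the log2 scale (adjusted p = 0.0113, against 0.254 without the block). BMC9 was higher than BMC10 by 0.60 (0.0112, against 0.107). In a fit to the arrays of the UG26 set alone, 2 members passed between the UG26 lines and 5 between AFT024 and BFC012. The Ndn call between the UG26 lines (0.64 ± 0.204; adjusted p = 0.0457) was lost in fits to the set (0.186) and to the pair (0.0619), with a variance trend (0.0532), and without single arrays, namely each of the 3 UG26.1B6 arrays and the second and the third UG26.3B5 array (0.0610 to 0.211).
Mesothelial markers moved with some of these pairs. Of 6, 5 were lower and 1 higher in AFT024 than in BFC012, and likewise in 2012 than in AFT011, and 4 were lower in OP9 than in BFC. Their summed linear signal per array was 2111 to 3037 in AFT024 and 5162 to 6183 in BFC012, 873 to 1030 in 2012 and 7843 to 8532 in AFT011, and 158 to 170 in OP9 and 540 to 574 in BFC. Their part in the members' differences was not tested.

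Supportive lines of different tissues were compared next. They also differed in mouse strain and donor age and, for 14F1-1, in culture temperature, which cannot be told apart from tissue. Between AFT024 and UG26.1B6, 6 of 9 members passed (4 higher, 2 lower; 30.1% of all genes), led by Ndn (-4.83), Slc38a4 (4.06) and Peg3 (2.32), with Grb10 at -1.71. Between AFT024 and BMC9, 8 passed (5 higher, 3 lower; 29.3%), led by Slc38a4 (4.92), Grb10 (4.54) and Peg3 (3.13), with Mest at -2.21. Both comparisons share the AFT024 arrays. The calls of Plagl1 (-0.52) and Cdkn1c (-0.31) between AFT024 and BMC9 were lost without the second AFT024 array (adjusted p = 0.0672 and 0.0604) and in a fit to the pair (0.192 and 0.0881), and that of Plagl1 also without the third (0.0857) and in a fit to the set (0.0588).
With the line 2012 as the fetal liver line, 7 members passed against AM14-1C4 (3 higher and 4 lower in AM14-1C4; 32.7% of all genes) and 6 against 14F1-1, all lower in 14F1-1 (36.6%). Slc38a4 was lower in AM14-1C4 by 22.2-fold and in 14F1-1 by 29.1-fold; these comparisons share the 2012 arrays. In 14F1-1, Ndn was lower by 20.6-fold and Grb10 by 18.1-fold. The calls of Sgce and Plagl1 between AM14-1C4 and 2012, both differences of -0.37, were lost without the second or the third 2012 array or the second AM14-1C4 array, and that of Plagl1 also without the first AM14-1C4 array (adjusted p from 0.0555 to 0.131).
Both AM lines, which come from the same tissue and are both classed as supportive, differed in 8 of 9 members (3 higher and 5 lower in AM14-1C4; 31.6% of all genes). The differences were 1.80 for Mest, -1.67 for Plagl1, -1.47 for Peg3, -1.12 for Cdkn1c, -0.96 for Peg10 and 0.87 for Ndn. Grb10, at 0.14, was the member that did not pass.

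Sorted stroma kept the line differences of the confluent cultures in the genes where those were large. The first arrays stood apart from the others here: in AFT024 without KLS cells, BFC012 without and AFT024 with, 65, 72 and 83 genes lay at least 2 log2 units from the mean of the other replicates. Slc38a4 gave 10.07, 9.62 and 9.76 in AFT024 and 4.80, 4.61 and 4.56 in BFC012 without KLS cells, a difference of 5.16 ± 0.124 (SE, 35.7-fold; adjusted p = 3.47e-09). Peg10 gave 10.11, 9.44 and 9.54 against 4.72, 4.90 and 5.19, and Sgce 8.11, 8.99 and 9.04 against 4.66, 4.73 and 4.59. Neither gene's groups overlapped. Ndn was lower in AFT024 (4.88, 4.69 and 4.72) than in BFC012 (6.92, 7.49 and 7.42), a difference of -2.51 ± 0.224 (SE).
Without KLS cells 5 members passed between the sorted lines (4 higher, 1 lower in AFT024; 7.32% of all genes), and with them 6 (5 higher, 1 lower; 11.6%). With KLS cells the differences were 5.52 for Slc38a4, 4.996 for Peg10, 4.14 for Sgce and -1.71 for Ndn. Replicate numbers were taken to pair the sorted arrays without KLS cells. This is uncertain, because differently numbered arrays also deviated together (r up to 0.501, against a lowest same-numbered r of 0.466). With that block Plagl1 (0.46 ± 0.134, SE) passed too (adjusted p = 0.0484, against 0.0619 without). The Cdkn1c difference was 0.69 ± 0.126 without KLS cells, lost in a fit to the pair (adjusted p = 0.0575), and 1.26 ± 0.126 with them. Grb10 passed with KLS cells (0.51 ± 0.143; adjusted p = 0.0402) but this call was lost in 8 alternatives (0.0532 to 0.131), among them without the first AFT024 array or any one of the BFC012 arrays. The calls of Slc38a4, Peg10, Sgce and Ndn held in every alternative run, each single array left out included. Mesothelial markers were lower in sorted AFT024 for 5 of 6 without and 3 of 6 with KLS cells, and their part in these differences was not tested.

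Contact with KLS cells moved 1 member past the threshold, in 1 line. Grb10 in AFT024 gave 7.57, 7.64 and 7.70 without and 8.83, 8.30 and 8.32 with KLS cells, a difference of 0.85 ± 0.143 (SE, 1.80-fold; adjusted p = 0.0350), where 0.351% of all genes passed. The groups did not overlap. The call did not hold in a fit to the pair (adjusted p = 0.255), with the replicate number as a block (0.432), with a variance trend (0.0507), without any one of the 3 AFT024 arrays grown without KLS cells (0.0691 to 0.152), or without the second (0.0692) or the third (0.0517) array grown with them; over all alternatives the range was 0.0279 to 0.432. Without the first arrays grown with KLS cells it was 0.67 (adjusted p = 0.04998). In BFC012 Grb10 gave 7.94, 7.88 and 7.57 without and 8.03, 7.997 and 7.89 with KLS cells, a difference of 0.17 ± 0.143, which did not pass. By limma, none of the 9 members passed in BFC012, where 0.883% of all genes did and 1 member had an unadjusted p under 0.05. The test of whether the change differed between the lines passed for none of the 9, with 3 at an unadjusted p under 0.05, and for 0.0401% of all genes; for Grb10 that difference was 0.67 (95% interval 0.23 to 1.12; adjusted p = 0.426).
Cdkn1c in AFT024 gave 6.36, 6.71 and 6.70 without and 7.18, 7.04 and 7.14 with KLS cells. Those groups did not overlap, but the difference of 0.53 ± 0.126 did not pass (adjusted p = 0.126). Ndn in BFC012 gave 6.92, 7.49 and 7.42 without and 6.71, 6.67 and 6.56 with KLS cells, again without overlap, and its difference of -0.63 ± 0.224 did not pass (adjusted p = 0.324). For Slc38a4 and Sgce in AFT024 the 95% intervals of the KLS difference were -0.01 to 0.54 and -0.58 to 0.71. Hematopoietic markers moved in neither line: none of 11 passed in either direction, and their summed linear signal was 244 to 255 without and 254 to 272 with KLS cells in AFT024, and 255 to 264 and 252 to 300 in BFC012. None of 8 macrophage markers passed either, with a summed linear signal of 298 to 363 without and 365 to 593 with KLS cells in AFT024; their part in the Grb10 difference was not tested.

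Peg3 was the member with the widest spread in sorted cells. With KLS cells it gave 4.86, 8.26 and 7.91 in AFT024 and 5.58, 7.08 and 7.19 in BFC012; without them it gave 7.88, 8.68 and 8.73 and 7.92, 6.82 and 6.62. The first array of both lines was the low one with KLS cells. In AFT024 it lay 3.22 log2 units below the mean of the other replicates, and 14 genes lay further down; in BFC012 it lay 1.55 below, and 5 genes lay further down. The mean difference with KLS cells in AFT024, -1.42 ± 0.781 (SE; adjusted p = 0.647), was -0.35 without that array, and in BFC012 it went from -0.50 to 0.01. The difference between the lines with KLS cells, 0.39, ran from -0.23 to 1.47 when single arrays were left out. No direction can be given for Peg3 from these arrays.

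**Figure D4:**
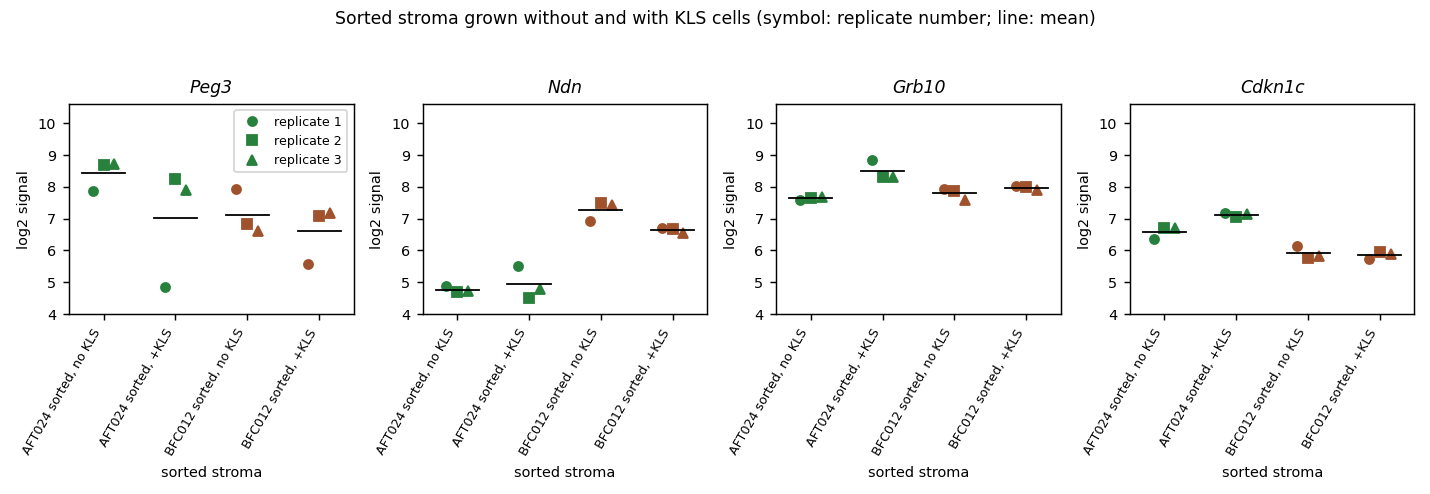
Log2 signal (vertical axis) of Peg3, Ndn, Grb10 and Cdkn1c in the 4 sorted groups (horizontal axis). Symbols mark the replicate number, horizontal lines are means, and symbols are green for AFT024 and brown for BFC012; the first arrays grown with KLS cells are the lowest for Peg3, at 4.86 and 5.58.

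Across the 17 groups, with each gene centred on its mean within a normalization set, the members did not follow one pattern. Pearson's r was 0.93 between Peg10 and Sgce, 0.75 between Plagl1 and Cdkn1c, 0.72 between Grb10 and Ndn and 0.71 between Slc38a4 and Peg10. The lowest of the 36 coefficients was -0.54, between Mest and Peg3. These values describe 17 group means in 4 sets, which share lines and normalization, and carry no test.
The genes whose group means ran most like each member were named by the highest r, for the 7 members whose means spanned more than 2 log2 units within a set. They were Abca5, Tmem37 and Fmn1 for Peg10 (0.93 to 0.94), Zfp560, Srgap3 and S100a13 for Sgce (0.93 to 0.95), and Ccdc47, Shtn1 and Tspan15 for Peg3 (0.88 to 0.94). For Ndn they were Hoxb7, Wnk3 and Sall2 (0.88 to 0.93), for Slc38a4 Dync2h1, Ccdc3 and Lrrc8d (0.88 to 0.91), for Grb10 Tmem132a, Zfp655 and Tmem176b (0.88 to 0.89), and for Mest Tmem26, Pou2f3 and Ramp2 (0.92 to 0.97). None of these is another member.

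Other imprinted genes outside the Dlk1 locus formed a list of 51, of which 41 were measured. Between AFT024 and BFC012, 15 of the 41 passed (36.6%, against 28.5% of all genes), 10 higher and 5 lower, with a median difference of -0.05 against -0.02 over all genes. Between OP9 and BFC 16 passed (39%, against 34.4% of all genes; 12 higher, 4 lower; median 0.08 against 0.01), and between 2012 and AFT011 16 (39%, against 27.6%; 11 higher, 5 lower; median 0.12 against 0.07). The counts were 5 (4 higher, 1 lower) for the UG26 lines, or 12.2% against 8.56%, and 10 (8 higher, 2 lower) for the BMC lines, or 24.4% against 15.5%.
Dcn, Phlda2, Tnfrsf23 and Igf2 were picked from the 41 after their values were seen. Dcn, which encodes the matrix proteoglycan decorin, was lower in AFT024 than in BFC012 (-2.69) and in BMC9 than in BMC10 (-1.81). It was also lower in OP9 than in BFC (-4.08) and in 2012 than in AFT011 (-1.06). In UG26.1B6 and UG26.3B5 its means were 6.30 and 6.23, which did not pass. Between sorted AFT024 and BFC012, Dcn differed by -3.24 without KLS cells (adjusted p = 0.0506), which did not pass, and by -4.64 with them, which passed. Phlda2, a placental growth suppressor gene near Cdkn1c, was higher in AFT024 than in BFC012 (2.32), and Tnfrsf23, a decoy receptor gene, by 2.23. In sorted stroma without KLS cells Tnfrsf23 again passed, at 2.38, whereas Phlda2 differed by 0.04 and did not pass. Igf2, the fetal growth factor gene that shares an imprinting control region with H19, had a mean signal of 10.91 in AM14-1C4 and of 6.82 to 7.15 in the other lines of that set, a difference of 3.88 from AM30-3F4. By limma, none of the 41 passed with KLS cells in AFT024, where 0.351% of all genes did, and 1 did in BFC012, Atp10a (1.13), or 2.44% of the 41 against 0.883% of all genes.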

How the data were processed

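The labels give mouse gene 1.0 ST arrays (Affymetrix) and 100 ng of total RNA. Each probe set has a deposited log2 value. The submitters' processing notes name RMA and Partek as the tools the authors used, with no version or setting. RMA values have no zero and compress low signals, so fold changes of dim genes are understated.

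Of 35556 probe sets, 21789 named 1 gene symbol on the platform annotation; per gene the one with the highest mean over 51 arrays was used, which gave 19938 genes. No array was dropped. Tests used limma 3.58.1 (R 4.3.3; a mean per group, moderated statistics, two-sided, Benjamini-Hochberg over all genes, threshold 0.05), in 1 fit to the 39 confluent and 1 to the 12 sorted arrays. Precision is limited by the 3 arrays of each group. Code was tested on simulated data. Alternatives were fits to the set or the pair, the replicate number as a block, quantile normalization, a variance trend with robust moderation, a low-signal filter (a group mean above the set median), the mean of probe sets, leaving out each array and, chosen after seeing the data, leaving out the first arrays grown with KLS cells. Differences of members that passed or were at least 0.3 in size were followed through the alternatives.

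Replicate numbers in the titles were taken to pair 2 groups where same-numbered arrays deviated together (r over 0.1 for all 3). This held for the UG26 lines (0.535, 0.327 and 0.468), the BMC lines (0.323, 0.116 and 0.435), AFT024 against BMC9 (0.528, 0.367 and 0.433) and the sorted lines without KLS cells (0.671, 0.517 and 0.466), and for no other comparison. The highest r between differently numbered arrays was 0.103 for the UG26 lines and -0.009 for AFT024 against BMC9. It was 0.194 for the BMC lines and 0.501 for the sorted lines without KLS cells, above the lowest same-numbered r of each. Whether the numbers pair the arrays is therefore uncertain for the BMC lines and these sorted lines.

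The members, the lists and the marker genes were chosen with earlier results of these data known. All members were described; the genes most like a member were the 3 with the highest r, leaving out clone-like symbols and small RNA and receptor families; neighbours were the 3 nearest measured genes on each side in RefSeq (GRCm38.p6). Sequences are from RefSeq. Figures were made with matplotlib 3.10.9 (Python 3.11.15).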

Additional observations from a re-analysis of the deposited data

Results flagged for a closer look

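Ndn and Peg3 had differences that passed and were of opposite sign in different pairs of a supportive with a less or non-supportive line, with no overlap between the arrays of the pairs named; for Slc38a4 the arrays of the UG26 lines also lay apart in the opposite direction, but that difference did not pass. The pairs lie partly in separate normalization sets, and whether the differences themselves differ was not tested. Ndn was higher in UG26.1B6 than in UG26.3B5 (0.64) and in 2012 than in AFT011 (3.18), but lower in AFT024 than in BFC012 (-4.13) and in OP9 than in BFC (-2.86). Peg3 was higher in UG26.1B6 than in UG26.3B5 (0.79) and lower in OP9 than in BFC (-2.81) and in 2012 than in AFT011 (-3.52). Its higher side thus rests on the UG26 lines, where both means (6.59 and 5.80) were dim, below the set median of 7.27. Slc38a4 was higher in AFT024 than in BFC012 (5.25), in OP9 than in BFC (1.41) and in 2012 than in AFT011 (4.33), and its difference between the UG26 lines was -0.15 (adjusted p = 0.497). Slc38a4 was also lower in BMC9 than in BMC10 (-0.44), which passed although the arrays overlapped, and not under every alternative run.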

How the results depend on the processing

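Of 78 differences of members that passed, 64 passed in every alternative run, among them all 48 with a size over 1 on the log2 scale; the other 14 were smaller and are named beside their values in the report. The number of members that passed changed by more than 1.5 times in 3 comparisons. It was 2 for the UG26 lines and 5 for AFT024 against BFC012 in a fit to the UG26 set alone. For KLS cells in AFT024 it was 0 in a fit to the pair, with the replicate block and with a variance trend, and 0 to 1 when single arrays were left out. Among the 98 differences followed (those that passed or were at least 0.3 in size), the ones that changed sign were all of Peg3 in sorted cells: KLS cells in BFC012 (-0.79 to 0.013 without single arrays, 0.013 without the first arrays grown with KLS cells), the test between lines (-1.54 to 0.16) and the lines with KLS cells (-0.23 to 1.47). Mest between AFT024 and UG26.1B6 (-0.38) passed in a fit to the pair (adjusted p = 0.0233) and in the block fit (0.0481), Mest between the sorted lines with KLS cells (-0.46, opposite to the confluent pair) likewise (0.0231 and 0.0492), and Plagl1 between AFT024 and UG26.1B6 (0.35) with the low-signal filter (0.04825). The causes were not tested. The paired fits changed no member's call in other paired comparisons than those given. Plagl1 between AFT024 and UG26.1B6 also passed without the second (0.0208) or the third (0.00563) AFT024 array, and Plagl1 between the sorted lines without KLS cells with quantile normalization (0.0283) or without the first AFT024 array (0.00467). Over all genes, the block moved the number that passed from 1459 to 3152 for the sorted lines without KLS cells, from 5994 to 3451 for AFT024 against UG26.1B6, from 176 to 58 for KLS cells in BFC012, from 70 to 0 in AFT024 and from 8 to 0 for the test between lines. In a fit to the pair it fell from 1707 to 748 for the UG26 lines (828 in a fit to the set), from 3082 to 1296 for the BMC lines (1900 for the set), from 5994 to 3898 for AFT024 against UG26.1B6, from 5837 to 3394 for AFT024 against BMC9, from 1459 to 884 for the sorted lines without KLS cells and from 70 to 11 for KLS cells in AFT024. Fits to the set lowered the number in every comparison of the UG26 set but raised it in every comparison of the 2012 set. There it went from 5493 to 7361 for 2012 against AFT011 and from 6308 to 7790 for the AM lines. Against 2012 it went from 6514 to 8004 for AM14-1C4 and from 7296 to 8611 for 14F1-1. Fits to the pair gave 4873, 8598, 7001 and 7803 in the same order. For the sorted lines with KLS cells a fit to the pair raised it from 2314 to 2758. With a variance trend the test between lines had 5. Without the first arrays grown with KLS cells, 112 passed for KLS cells in AFT024 and 31 in the test between lines. Leaving out single arrays gave 1122 to 1964 for the UG26 lines, 749 to 2241 for the sorted lines without and 1381 to 2732 with KLS cells, 22 to 149 for KLS cells in AFT024, 70 to 373 in BFC012 and 0 to 46 for the test between lines. Small differences in dim genes (Cdkn1c in the OP9 set, Mest in the sorted set and in 3 of the 5 confluent pairs) rest on signals below the set median.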
